A study of Mus musculus with 12 samples.

Results

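The Wnt ligands, their receptors and their modulators were followed as 52 genes, taken by family name from the 54352 gene symbols of a count table. They comprised 19 Wnt ligands, 10 frizzled receptors, 4 co-receptors (*Lrp5*, *Lrp6*, *Ror1* and *Ror2*), 9 secreted inhibitors, 7 R-spondins and Lgr receptors, and 3 intracellular genes, the feedback target *Axin2* and the formins *Daam1* and *Daam2*. The counts came from RNA-seq of primary fibroblasts grown out of the adventitia, the outer connective tissue layer of the artery wall, of the ascending or the descending aorta of wild-type C57Bl/6 mice. According to the sample labels the mice were 14 weeks old. The cells were passaged 1 time and then kept for 48 h with solute (control, 0 ng/mL) or with mouse TGFβ at 10 ng/mL. Ascending control, ascending TGFβ, descending control and descending TGFβ cultures each gave 3 libraries, and the labels place all 12 in a single batch. Labels and methods differ on the age of the mice, and the study's text is not uniform on the number of passages. Nothing in the sources used here states that the 3 libraries of a group came from separate animals or cultures, so the p-values measure the spread between these libraries, which may be technical.

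Wnt proteins are secreted, lipid-modified ligands that bind frizzled receptors. Together with the co-receptors LRP5 or LRP6 they stabilise β-catenin, which then acts with TCF/LEF factors in the nucleus, while with ROR receptors they act on the cytoskeleton and cell polarity through dishevelled and the DAAM formins. Secreted frizzled-related proteins and WIF1 bind the ligands, DKK1 and DKK2 bind LRP5 and LRP6, and R-spondins act through LGR4, LGR5 and LGR6 to keep frizzled receptors on the cell surface. Fibroblasts are a known source of *Wnt5a*, and crosstalk between the Wnt and TGFβ pathways is well known in fibroblast activation.

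The promoters of 6 members on which the results below turn are shown first, as the 250 bases before the annotated start, 5′ to 3′ on the strand of the gene. They belong to 3 ligands that were higher with TGFβ (*Wnt9a*, *Wnt10b* and *Wnt1*), to 1 inhibitor that was lower with it (*Sfrp2*), and to 2 genes that were higher in descending than in ascending control cultures (*Dkk2* and *Daam2*). Sequences and starts are those of RefSeq on GRCm38.p6, which held promoters for 36 of the 52 genes. Capitals mark every match, on either strand, to the motifs TGANTCA (AP-1), GTCTAGAC and CAGACA (SMAD), CTTTGAA and CTTTGAT (TCF/LEF) and GGGCGG (SP/KLF).
*Wnt9a* (chr11:59306680-59306929, plus strand): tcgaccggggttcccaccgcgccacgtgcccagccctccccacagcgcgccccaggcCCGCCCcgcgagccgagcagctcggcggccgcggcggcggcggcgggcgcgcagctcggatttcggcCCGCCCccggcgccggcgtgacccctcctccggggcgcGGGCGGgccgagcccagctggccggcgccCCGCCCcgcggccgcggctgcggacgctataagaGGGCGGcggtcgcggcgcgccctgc
*Wnt10b* (chr15:98778151-98778400, minus strand): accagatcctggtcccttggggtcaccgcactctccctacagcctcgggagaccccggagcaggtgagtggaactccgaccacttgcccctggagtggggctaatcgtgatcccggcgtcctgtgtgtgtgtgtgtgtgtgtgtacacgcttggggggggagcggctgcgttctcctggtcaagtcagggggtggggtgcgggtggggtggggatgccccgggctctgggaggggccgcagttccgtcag
*Wnt1* (chr15:98789607-98789856, plus strand): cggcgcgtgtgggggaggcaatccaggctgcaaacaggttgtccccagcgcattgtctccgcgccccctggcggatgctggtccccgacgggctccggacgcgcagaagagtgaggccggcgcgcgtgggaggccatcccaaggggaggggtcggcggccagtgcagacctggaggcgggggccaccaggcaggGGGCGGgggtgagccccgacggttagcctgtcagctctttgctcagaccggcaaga
*Sfrp2* (chr3:83766071-83766320, plus strand): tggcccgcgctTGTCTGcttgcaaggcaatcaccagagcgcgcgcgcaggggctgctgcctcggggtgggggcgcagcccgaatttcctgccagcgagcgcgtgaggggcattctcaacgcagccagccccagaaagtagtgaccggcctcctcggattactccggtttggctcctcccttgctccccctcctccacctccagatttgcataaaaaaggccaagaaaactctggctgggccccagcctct
*Dkk2* (chr3:132085042-132085291, plus strand): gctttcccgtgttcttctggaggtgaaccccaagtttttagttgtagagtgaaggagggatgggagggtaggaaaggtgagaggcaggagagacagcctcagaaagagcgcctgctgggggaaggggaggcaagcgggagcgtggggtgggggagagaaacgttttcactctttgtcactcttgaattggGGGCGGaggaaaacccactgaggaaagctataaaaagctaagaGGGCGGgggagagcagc
*Daam2* (chr17:49564338-49564587, minus strand): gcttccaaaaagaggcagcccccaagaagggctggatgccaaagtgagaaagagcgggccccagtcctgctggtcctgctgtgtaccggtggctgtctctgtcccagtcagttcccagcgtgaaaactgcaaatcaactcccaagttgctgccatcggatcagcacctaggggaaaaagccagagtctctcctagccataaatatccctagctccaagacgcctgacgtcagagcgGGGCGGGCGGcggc

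The *Wnt9a* window held 5 GGGCGG matches, 2 on the gene's strand and 3 on the opposite one. The *Wnt10b* window held no match to any of the motifs. A single GGGCGG lay 56 bases before the *Wnt1* start, and the *Sfrp2* window held 1 CAGACA on the opposite strand. The *Dkk2* and *Daam2* windows held 2 GGGCGG matches each, which overlap in *Daam2* and appear there as one run of capitals. The 36 member genes had 41 promoters, of which 30 held GGGCGG, as did 32.7% of all 32851 RefSeq promoters of this length. That motif was added after values had been seen. TGANTCA occurred in 2 of the 41 member promoters and in 6.75% of all promoters, CAGACA in 3 and 17.1%, CTTTGAA in 1 and 4.46%, CTTTGAT in 2 and 3.21%, and GTCTAGAC in 0 and 0.167%. A match describes the letters of a window only.

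The 12 libraries held 16250126 to 23892943 counts. Normalized CPM are counts relative to the library total (CPM), scaled with edgeR's TMM factors over the 12 libraries, and 3 counts in a library, taken as its floor, corresponded to 0.117 to 0.207 normalized CPM. Floors cover counting error only. Descending control replicate 3 stood apart. It had a count on 13031 gene symbols, against 19337 to 20931 in the other 11 libraries, and 11.02% of its counts were mitochondrial, against 0.703 to 1.03%. Among the Wnt genes, 26 of 52 were at 0 counts in that library and 8 to 13 in each of the others. The tests keep this library, since the study lists 3 per group, and called results and counts that rest on descending control cultures are given with and without it. Tests were edgeR's quasi-likelihood F-test, two-sided, and a gene was called at a Benjamini-Hochberg adjusted p under 0.05 over all genes tested. Changes and differences are log2 fold changes with their standard error (SE) after ±.

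All 7 fibroblast markers examined (*Pdgfra*, *Col1a1*, *Col1a2*, *Dcn*, *Lum*, *Dpt* and *Pi16*) were above the floor in each group, at sums of 10453 to 11898 normalized CPM in control and 17486 to 23171 with TGFβ. Other marker lists moved with the groups. The 6 smooth muscle markers, all above the floor, summed to 1537 to 1654 and 5052 to 5147 normalized CPM in ascending control and TGFβ libraries, and to 2435 to 2516 and 7894 to 8318 in descending ones. Of 5 mesothelial markers, *Wt1* was at 0 in both control groups and in descending TGFβ, and *Lrrn4* in both descending groups. Their sums were 33.5 to 44.2, 19.7 to 26.5, 6.89 to 13.0 and 12.2 to 13.9 normalized CPM in ascending control, ascending TGFβ, descending control and descending TGFβ libraries. The 3 adipocyte markers summed, in the same order, to 0.912 to 4.94, 0.0473 to 0.574, 22.2 to 28.6 and 9.73 to 18.3 normalized CPM. Macrophage markers (6 of 6 above the floor) summed to 54.4 to 357 normalized CPM in ascending control and to 14.0 to 47.2 in the other 3 groups. Of 6 endothelial markers, 3 to 5 were above the floor in a group and *Emcn* was at 0 in both control groups. They summed, in the same order, to 24.4 to 27.9, 4.85 to 5.72, 23.9 to 26.8 and 9.64 to 11.3 normalized CPM. Of 3 pericyte markers 2 were above the floor, and *Kcnj8* was at 0 outside ascending control. Their sums were 86.1 to 99.6, 41.4 to 43.4, 73.6 to 148.9 and 84.2 to 92.4. Of 3 cardiomyocyte markers, with *Myh6* at 0 in every library and 1 or 2 above the floor, the sums were 5.84 to 7.74, 3.26 to 3.70, 0.389 to 1.39 and 1.03 to 1.43. The 4 Schwann cell markers, with *Sox10* at 0 in descending libraries, summed to 21.4 to 25.9, 14.9 to 15.7, 14.7 to 24.7 and 10.8 to 12.1. The part of these cells in the Wnt results was not tested. In bulk RNA, fewer cells of a type and less RNA per cell cannot be told apart.

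Of the 52 genes, 36 passed edgeR's filter on low counts over the 4 groups, among 14637 genes that did. Those passing were 10 of 19 ligands, 9 of 10 frizzled receptors, 4 of 4 co-receptors, 6 of 9 inhibitors, 4 of 7 R-spondins and Lgr receptors, and 3 of 3 intracellular genes. The 16 that did not pass were *Wnt3*, *Wnt3a*, *Wnt6*, *Wnt7a*, *Wnt7b*, *Wnt8a*, *Wnt8b*, *Wnt9b*, *Wnt16*, *Fzd10*, *Sfrp5*, *Dkk1*, *Wif1*, *Rspo1*, *Rspo4* and *Lgr5*. *Wnt3a*, *Wnt7a* and *Wnt9b* had 0 counts in all 12 libraries. The highest count of any of the 16 in a library was 35, for *Rspo1* in descending control replicate 3, where the other 2 descending controls had 7 and 0. *Lgr5*, a stem cell marker and R-spondin receptor, reached 13 counts at most, and *Wnt16* reached 13. Apart from *Wnt7b*, with up to 28 counts in a control library, and *Rspo1* in descending control replicate 3, these genes were at or close to the limit of detection at this depth. A member that passed because of the group in which it is high had to differ, so its call adds no support to the counts below. Such members include *Wnt1* and *Fzd9* for TGFβ, and *Sfrp2* for TGFβ in descending cultures and between sites with TGFβ. They also include *Wnt4* and *Wnt7b* in the fits without descending control replicate 3. These members were not taken out of the counts.

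With levels set per kb of merged exon, so that genes can be compared, *Wnt5a*, which signals mainly outside the β-catenin branch, was the most abundant ligand in every library. It took 29.5 to 32.2% of the summed ligand level in ascending control, 47.3 to 50.1% in ascending TGFβ, 29.6 to 36.2% in descending control and 44.3 to 46.1% in descending TGFβ libraries. Summed over the 19 ligands, the level was 19.8 ± 0.131 normalized CPM per kb in ascending control and 47.5 ± 0.621 with TGFβ (levels are given ± SD, n = 3, and log2 values ± SE). Descending cultures had 12.6 ± 7.08 in control, where replicate 3 had 4.45 and the other 2 libraries 17.0 and 16.4, and 61.8 ± 0.411 with TGFβ. The ranges with and without TGFβ did not overlap at either site.

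**Figure D1:**
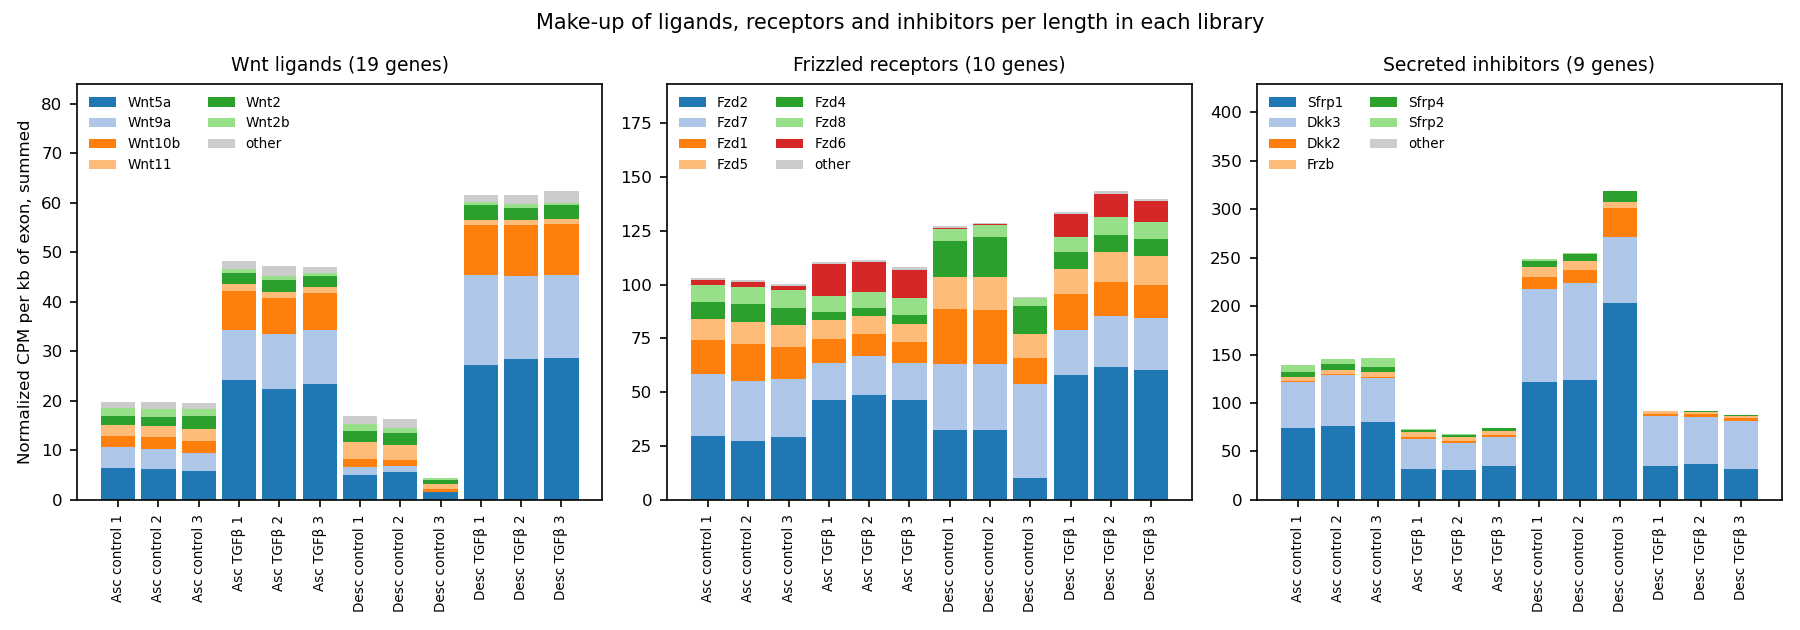
Stacked bars give the level per kb of merged exon (normalized CPM per kb) of each member of the ligands, frizzled receptors and secreted inhibitors in each of the 12 libraries. *Wnt5a*, *Wnt9a* and *Wnt10b* make up most of the ligand bars with TGFβ, and *Sfrp1* and *Dkk3* most of the inhibitor bars.

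*Wnt5a* (chr14:28504750-28527448, plus strand, GRCm38) rose with TGFβ. Its level was 49.7, 48.8 and 45.3 normalized CPM in ascending control replicates 1, 2 and 3 and 189, 175 and 183 in ascending TGFβ. Descending control libraries had 39.4, 43.7 and 12.6 and descending TGFβ libraries 213, 222 and 224. Every TGFβ library lay above every control library, and descending control replicate 3 was the lowest of the 12. The change on the log2 scale was 1.92 ± 0.046 in ascending cultures (adjusted p = 2.81e-15) and 2.78 ± 0.46 in descending ones (adjusted p = 0.0206). The latter was 2.41 ± 0.061, and also called, without descending control replicate 3, and was not called when any other of the 6 descending libraries was left out (2.41 to 3.07 over the 6 fits). With TGFβ, ascending cultures were lower than descending ones by a log2 difference of -0.27 ± 0.040. In control the difference was 0.59 ± 0.44, not called, or 0.22 ± 0.065 and called without descending control replicate 3. Of the exon sequence of *Wnt5a*, 4.58% overlaps *Gm2670*, from which its reads cannot be told apart if counting was not stranded.

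*Wnt9a* (chr11:59306928-59333552, plus strand), whose product is best known from joint and bone development, stood at 14.2, 13.4 and 12.1 normalized CPM in ascending control and 33.7, 37.4 and 36.3 in ascending TGFβ libraries. Its values were 5.13, 4.21 and 0 in descending control and 60.4, 56.2 and 55.7 in descending TGFβ. Groups did not overlap: the order was descending control, ascending control, ascending TGFβ, descending TGFβ. The change with TGFβ was 1.43 ± 0.072 in ascending cultures (adjusted p = 3.32e-11). For descending cultures it was 4.16 ± 1.05 and did not pass with all 6 libraries (adjusted p = 0.0721), while without descending control replicate 3, where *Wnt9a* had 0 counts, it was 3.62 ± 0.10 and passed. With TGFβ the level was lower in ascending than in descending cultures, at -0.68 ± 0.058. In control the difference was 2.07 ± 1.13, not called, or 1.51 ± 0.14 and called without descending control replicate 3. The nearest Wnt gene, *Wnt3a*, lies 16175 bases away and had 0 counts throughout.

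*Wnt10b* (chr15:98770712-98778150, minus strand), a ligand of the β-catenin branch that restrains fat cell formation, gave 8.04, 8.64 and 8.28 normalized CPM in ascending control and 26.7, 24.3 and 25.2 with TGFβ. Descending cultures gave 5.64, 4.16 and 2.07 in control and 34.3, 34.8 and 35.0 with TGFβ. *Wnt10b* rose by 1.61 ± 0.080 in ascending (adjusted p = 2.83e-11) and by 3.11 ± 0.37 in descending cultures (adjusted p = 0.00717), or 2.82 ± 0.11 without descending control replicate 3. With TGFβ the log2 difference of ascending from descending cultures was -0.45 ± 0.065 and was called. The control difference was 1.07 ± 0.38, not called (adjusted p = 0.302), or 0.77 ± 0.16 and called without descending control replicate 3. *Wnt1* (chr15:98789857-98793837, plus strand), the founding member of the family, lies 11706 bases from *Wnt10b*. It had 0, 1 and 0 counts in ascending control and 0, 3 and 0 in descending control libraries, all at or under the floor. With TGFβ it had 31, 31 and 15 counts, or 1.62, 1.47 and 0.730 normalized CPM, in ascending and 12, 14 and 16 counts, or 0.612, 0.759 and 0.756 normalized CPM, in descending libraries. Set against the floor of 3 counts per library, *Wnt1* was at least 8.95-fold higher with TGFβ in ascending cultures (adjusted p = 3.75e-06). In descending cultures the mean was at least 4.69-fold higher, a difference that did not pass with all libraries (adjusted p = 0.123) and passed without descending control replicate 3.

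**Figure D2:**
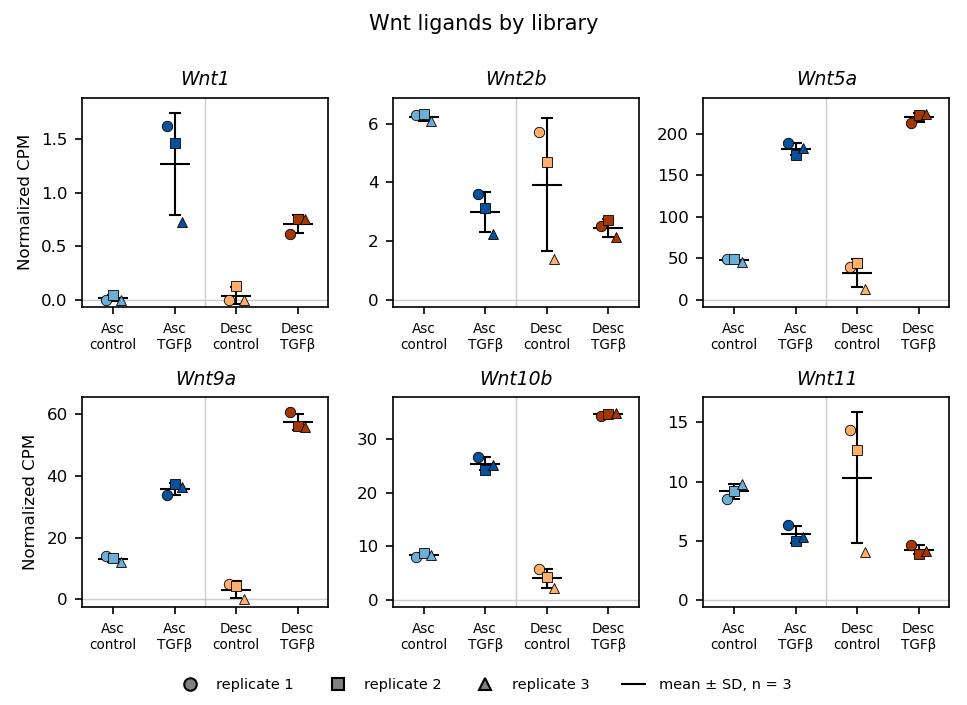
Normalized CPM (linear axis) of 6 Wnt ligands in the 12 libraries, with the mean ± SD of each group of 3. *Wnt1*, *Wnt5a*, *Wnt9a* and *Wnt10b* are higher in every TGFβ library than in the control libraries of the same site, and descending control replicate 3 is the lowest or joint lowest descending control for all 6 genes.

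Other ligands were lower with TGFβ. *Wnt2b*, a ligand of the β-catenin branch, was at 6.30, 6.34 and 6.09 normalized CPM in ascending control and 3.60, 3.12 and 2.24 with TGFβ, a log2 change of -1.07 ± 0.18 (adjusted p = 8.24e-05). Its descending values were 5.72, 4.68 and 1.38 in control and 2.50, 2.71 and 2.13 with TGFβ, where control replicate 3 lay below the TGFβ libraries. The change there was -0.69 ± 0.54 and not called, or -1.09 ± 0.20 and called without that library. *Wnt11*, which drives cell movements in the embryo, was at 8.56, 9.19 and 9.79 normalized CPM in ascending control and 6.37, 5.01 and 5.31 with TGFβ (log2 fold change -0.73 ± 0.14, called). In descending cultures its values were 14.3, 12.6 and 4.07 in control and 4.64, 3.90 and 4.16 with TGFβ. Control replicate 3 lay among the TGFβ libraries, and the other 2 controls were above them. The change of -1.29 ± 0.47 was not called with all libraries, while that of -1.67 ± 0.14 without control replicate 3 was. Of the exon sequence of *Wnt11*, 8.8% overlaps *Gm8398*. *Wnt4* and *Wnt7b* had low counts. *Wnt4* had 3, 3 and 0 counts in ascending control, 1, 0 and 1 in ascending TGFβ, 15, 21 and 0 in descending control and 1, 0 and 11 in descending TGFβ libraries. *Wnt7b* had 7, 7 and 9 counts in ascending control, 0 in each ascending TGFβ library, 28, 10 and 0 in descending control and 1, 0 and 0 in descending TGFβ libraries, and 6.61% of its exon sequence overlaps *AU022754*. Both were called lower with TGFβ in descending cultures in the fit without control replicate 3, on the 10 to 28 counts of the other 2 controls. With all libraries *Wnt4* was not called there (-1.37 ± 1.59) and *Wnt7b* did not pass the filter. *Wnt2* and *Wnt5b* were not called for a change with TGFβ at either site, with or without that library, and *Wnt10a* was not called in ascending cultures and not tested in descending ones. *Wnt5b*, a close relative of *Wnt5a*, was lower in ascending than in descending TGFβ cultures, at -0.82 ± 0.25.

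Among the frizzled receptors, which bind the ligands, *Fzd6* had the largest rise. Its level was 10.6, 10.4 and 9.35 normalized CPM in ascending control and 72.7, 67.7 and 64.3 in ascending TGFβ libraries. The descending libraries had 2.57, 2.30 and 0 in control and 51.7, 51.0 and 47.8 with TGFβ. All TGFβ libraries were above all control libraries, and descending control replicate 3 had 0 counts. The change was 2.74 ± 0.068 in ascending cultures (adjusted p = 4.27e-15) and 4.88 ± 0.95 in descending ones (adjusted p = 0.0339), or 4.36 ± 0.11 without that library. The descending call held in that fit and in none of the 5 that left out another descending library (4.36 to 5.33 over the 6 fits). With TGFβ the level was higher in ascending cultures by 0.44 ± 0.054. In control it differed by 2.62 ± 1.07, not called, or 2.07 ± 0.16, called without descending control replicate 3. *Fzd6*, which acts in planar polarity, overlaps *Gm26704* over 3.15% of its exon sequence.

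*Fzd4*, a receptor needed for vessel growth in the retina, fell with TGFβ and was lower in ascending cultures in both conditions. Its values were 52, 55.7 and 54.7 normalized CPM in ascending control, 22.8, 26.2 and 27.1 in ascending TGFβ, 113, 124 and 89.97 in descending control and 51.5, 55.5 and 55.5 in descending TGFβ libraries. Ascending control and descending TGFβ libraries overlapped, descending controls were above them and ascending TGFβ libraries below. The log2 change with TGFβ was -1.09 ± 0.062 in ascending and -1.02 ± 0.15 in descending cultures (-1.13 ± 0.059 without control replicate 3), and the difference of ascending from descending was -1.01 ± 0.15 in control (adjusted p = 0.0290) and -1.09 ± 0.065 with TGFβ (adjusted p = 3.45e-14). Leaving out descending control replicate 3 gave -1.12 ± 0.058 in control. Both the descending change and the control difference were called in that fit and in none of those that left out another library (-1.13 to -0.91 and -1.12 to -0.90 over 6 fits each). *Fzd9*, a receptor studied in bone and brain, was low, at 7, 5 and 6 counts in ascending control and 20, 24 and 23 with TGFβ. In descending cultures it had 7, 8 and 0 counts in control and 19, 24 and 15 with TGFβ. Every TGFβ library had more counts than every control library. It rose in ascending cultures (1.93 ± 0.37), was not called in descending ones (2.16 ± 0.98), and was called there without control replicate 3 (1.66 ± 0.49).

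The share of *Fzd2* in the frizzled level per kb was higher with TGFβ. In ascending control libraries *Fzd2* took 26.7 to 29.2% of the summed frizzled level and *Fzd7* 26.6 to 28.1%, ranges that overlap. In descending control replicates 1 and 2 *Fzd2* took 25.5 and 25.2% and *Fzd7* 24.3 and 23.8%, while replicate 3 had 10.7% and 46.4%. *Fzd2* was the most abundant frizzled in 2 of 3 control libraries of each site and in all 6 TGFβ libraries. With TGFβ *Fzd2* took 41.9 to 43.6% in ascending and 43.2 to 43.3% in descending libraries, and *Fzd7* 15.6 to 16.3% and 15.8 to 17.0%. *Fzd2*, a receptor for WNT5A, stood at 108, 99.9 and 107 normalized CPM in ascending control and 169.9, 178 and 169.9 with TGFβ, and its rise was 0.71 ± 0.040. Its descending values were 119, 119 and 36.9 in control and 212, 227 and 222 with TGFβ, where control replicate 3 was far below the other 2, and the change of 1.26 ± 0.44 was not called (without that library, 0.89 ± 0.052 and called). *Fzd7* and *Fzd1* fell in ascending cultures, with log2 changes of -0.67 ± 0.043 and -0.64 ± 0.063. In descending cultures their changes, -0.63 ± 0.18 and -0.38 ± 0.29, were not called with all libraries, and were called at -0.43 ± 0.056 and -0.65 ± 0.056 without control replicate 3. With TGFβ, *Fzd1*, *Fzd2*, *Fzd5* and *Fzd7* were lower in ascending cultures, by log2 differences of -0.63, -0.35, -0.57 and -0.38. *Fzd3* was not called for a change with TGFβ, and *Fzd8* changed by -0.13 ± 0.051 in ascending cultures, a call lost in 4 of the 6 fits that left out 1 library (without control replicates 2 and 3 or TGFβ replicates 1 and 2, with changes of -0.16 to -0.10 over the 6 fits). The descending change of *Fzd8* was 0.67 ± 0.21, not called, or 0.48 ± 0.073 and called without control replicate 3. Of the exon sequence of *Fzd5*, 17.8% overlaps *Gm38058*.

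**Figure D3:**
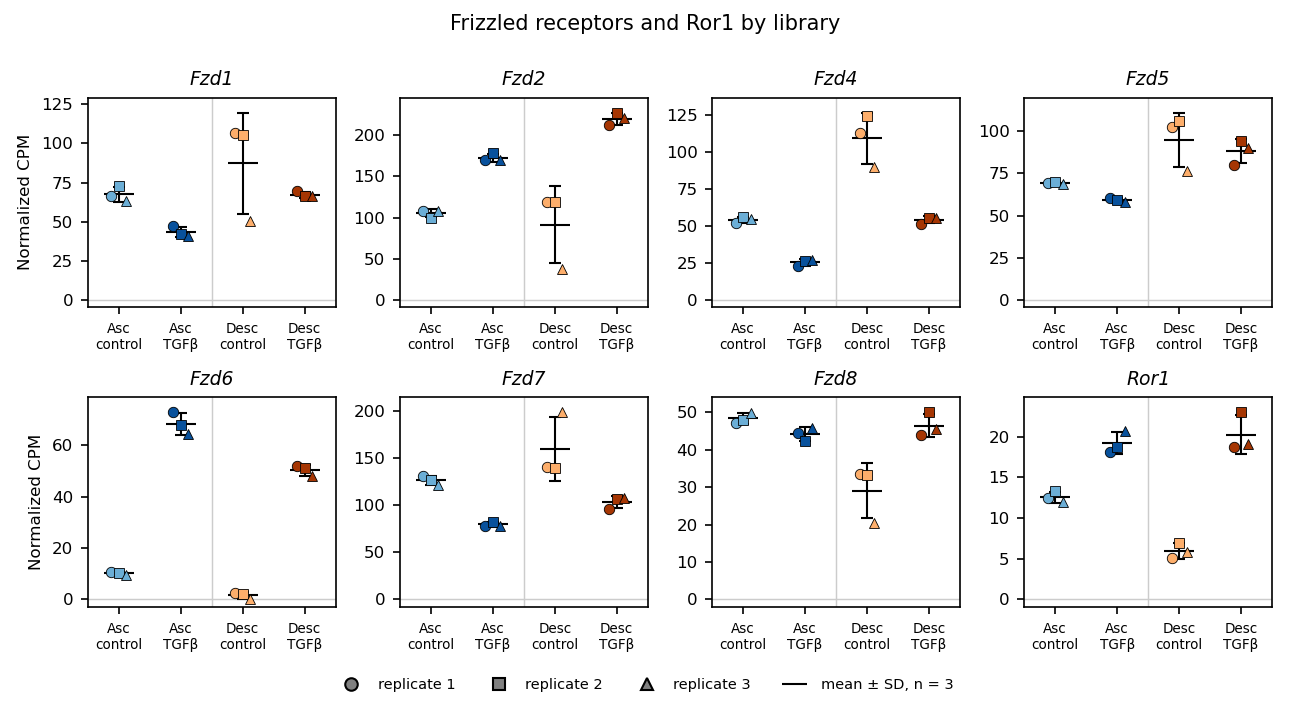
Normalized CPM (linear axis) of 7 frizzled receptors and *Ror1* in the 12 libraries, with the mean ± SD of each group of 3. *Fzd6* is higher and *Fzd4* lower in every TGFβ library than in the control libraries of the same site.

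Of the co-receptors, *Ror1*, a receptor tyrosine kinase-like protein that binds WNT5A, was called at both sites. Its values were 12.5, 13.3 and 11.9 normalized CPM in ascending control and 18.2, 18.8 and 20.7 with TGFβ. In descending cultures they were 5.10, 6.98 and 5.79 in control and 18.7, 23.0 and 19.1 with TGFβ. The 3 descending controls were the lowest libraries, control replicate 3 lay between the other 2, and the TGFβ groups overlapped. The rise was 0.61 ± 0.083 in ascending (adjusted p = 8.97e-06) and 1.76 ± 0.19 in descending cultures (adjusted p = 0.00604), or 1.75 ± 0.13 without control replicate 3. The interaction, which is the ascending change minus the descending change, was -1.15 ± 0.20 (adjusted p = 0.0284) and -1.14 ± 0.16 without descending control replicate 3. *Ror2* was not called with TGFβ at either site with all libraries (0.010 ± 0.15 in ascending, 0.98 ± 1.19 in descending), and was lower in ascending than in descending TGFβ cultures (-0.74 ± 0.14). The 2 LRP co-receptors of the β-catenin branch moved in opposite directions in ascending cultures, *Lrp5* by -0.39 ± 0.065 and *Lrp6* by 0.39 ± 0.046. In descending cultures neither was called with all libraries (-0.18 ± 0.17 and -0.55 ± 0.30). Of the 3 that missed the threshold there, *Ror2* at 0.40 ± 0.15 and *Lrp6* at -0.13 ± 0.054 were called without control replicate 3, and *Lrp5* at -0.012 ± 0.066 was not.

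The secreted inhibitors as a group stood at 144 ± 4.15 normalized CPM per kb in ascending control and 71.7 ± 3.55 with TGFβ, and at 274 ± 38.7 and 90.6 ± 2.50 in descending cultures. Of the descending controls, replicate 3 had 318 and the other 2 had 248 and 255. *Sfrp1* was the largest of them in every control library and in ascending TGFβ, with 44.4 to 63.7% of the sum, and *Dkk3* in descending TGFβ, with 53.1 to 56.9%. *Sfrp1*, a decoy that binds Wnt ligands, stood at 326, 333 and 349.9 normalized CPM in ascending control and 141, 136 and 151 with TGFβ. Descending cultures had 530.0, 540.4 and 886 in control and 154, 162 and 140.0 with TGFβ. Control libraries were all above TGFβ libraries, and descending control replicate 3 was the highest of all. The change was -1.24 ± 0.041 in ascending (adjusted p = 1.35e-13) and -2.11 ± 0.24 in descending cultures (adjusted p = 0.00664), or -1.81 ± 0.054 without that library.

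*Sfrp2* (chr3:83766321-83774316, plus strand), from the same family, had the largest fall among the members tested in ascending cultures, where *Wnt7b*, with 0 counts in each TGFβ library, was not tested. It was at 14.7, 12.6 and 19.5 normalized CPM in ascending control and 0.783, 1.32 and 1.36 with TGFβ, a change of -3.74 ± 0.21 (adjusted p = 1.24e-10). Descending cultures had 4.08, 2.47 and 0 in control and 0.357, 0.163 and 0.0473 with TGFβ, below the filter when all 6 libraries were used. When control replicate 3, which had 0 counts, was left out, the change there was -4.10 ± 0.43 and was called. *Sfrp2* was higher in ascending than in descending cultures with TGFβ (2.61 ± 0.50, adjusted p = 1.07e-04). That value rests on 1 to 7 counts in descending TGFβ libraries and ranged from 2.12 to 3.44 with 1 library left out. In control the difference was 2.81 ± 1.10, not called with all libraries, and 2.25 ± 0.22 and called without descending control replicate 3. Of its exon sequence 16.1% overlaps *Gm26771*. *Sfrp4*, another family member found in connective tissues, was at 22.9, 22.6 and 21.0 normalized CPM in ascending control and 11.2, 8.84 and 11.7 with TGFβ. It was at 23.3, 28.1 and 47.0 in descending control and 2.04, 3.36 and 2.79 with TGFβ. Descending control replicate 3 was highest and the descending TGFβ libraries were lowest. It fell at both sites, with log2 changes of -1.07 ± 0.10 in ascending and -3.59 ± 0.36 in descending cultures (-3.23 ± 0.14 without control replicate 3), with an interaction of 2.52 ± 0.37 (adjusted p = 0.0155), or 2.16 ± 0.19 without descending control replicate 3.

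*Frzb*, also called secreted frizzled-related protein 3, was called for TGFβ in descending and not in ascending cultures, and its interaction was called. Its ascending values were 11.2, 14.3 and 16.7 normalized CPM in control and 16.5, 14.4 and 14.6 with TGFβ, which overlap. Its descending values were 32.8, 31.8 and 17.4 in control and 9.23, 8.07 and 8.98 with TGFβ, which do not. The changes were 0.11 ± 0.12 and -1.65 ± 0.27 (-1.88 ± 0.10 without control replicate 3), and the interaction was 1.75 ± 0.33 (adjusted p = 0.0369), or 1.99 ± 0.16 without descending control replicate 3. *Frzb* was higher in ascending cultures with TGFβ (0.79 ± 0.10), and in control the difference was -0.95 ± 0.29, not called, or -1.19 ± 0.12 and called without that library. The descending change of *Frzb* lost its call when any descending library but control replicate 3 was left out (-1.88 to -1.49 over the 6 fits). *Dkk2* (chr3:132085292-132180304, plus strand), an antagonist that binds LRP5 and LRP6, moved in opposite directions. In ascending cultures it was at 5.00, 5.44 and 5.84 normalized CPM in control and 7.93, 7.19 and 7.01 with TGFβ, a rise of 0.44 ± 0.14 (adjusted p = 0.0126). Descending cultures had 47.8, 50.4 and 114 in control and 9.13, 9.32 and 8.36 with TGFβ, a log2 change of -2.99 ± 0.39 (adjusted p = 0.0102). The 3 descending controls were far above all other libraries, replicate 3 most of all, and with TGFβ the difference between sites was -0.27 ± 0.12 and not called. In control the difference of ascending from descending was -3.70 ± 0.41 (adjusted p = 0.0119). The interaction was 3.42 ± 0.42 (adjusted p = 0.00540). The descending change, the control difference and the interaction were -2.46 ± 0.086, -3.17 ± 0.082 and 2.90 ± 0.14 without descending control replicate 3, all called. *Dkk3*, a family member whose role in Wnt signalling is less settled, was at 159, 176 and 153 normalized CPM in ascending control, 101, 92.5 and 101 in ascending TGFβ, 324, 336 and 229 in descending control and 171, 164 and 168 in descending TGFβ libraries. Descending controls were highest, ascending TGFβ libraries lowest, and the other groups overlapped. *Dkk3* fell at both sites (-0.73 ± 0.052 and -0.83 ± 0.17, or -0.97 ± 0.049 without descending control replicate 3), and was lower in ascending than descending cultures with TGFβ (-0.77 ± 0.044). Its descending call was likewise lost in 5 of 6 fits, all but that without control replicate 3 (-0.97 to -0.73).

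**Figure D4:**
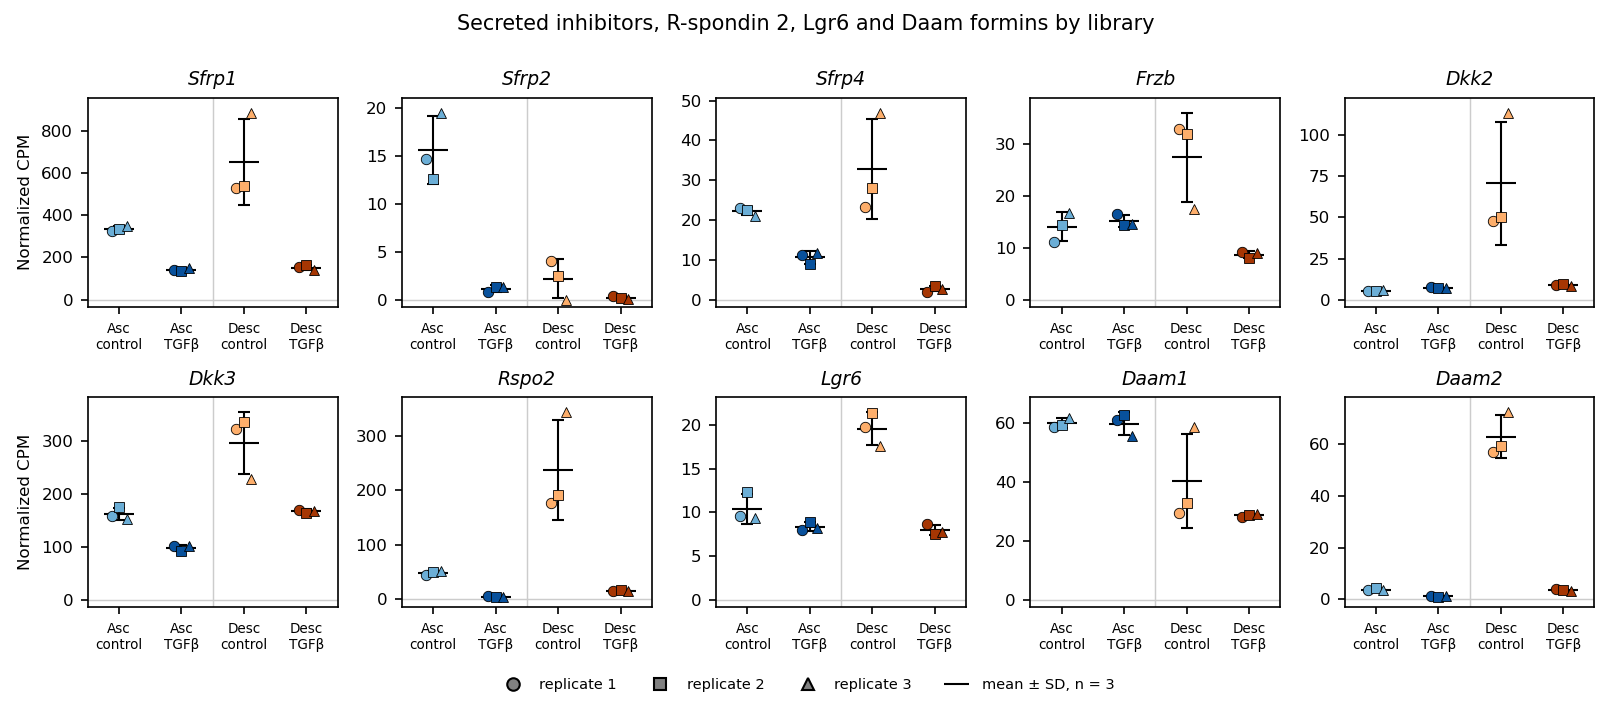
Normalized CPM (linear axis) of secreted inhibitors, *Rspo2*, *Lgr6* and the DAAM formins in the 12 libraries, with the mean ± SD of each group of 3. *Dkk2*, *Rspo2*, *Lgr6* and *Daam2* are highest in the 3 descending control libraries, and *Sfrp2* in the ascending controls.

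*Rspo2*, an R-spondin that amplifies Wnt signalling, had the largest changes among the R-spondins and Lgr receptors. It was at 45.0, 50.4 and 51.4 normalized CPM in ascending control and 6.37, 3.88 and 5.06 with TGFβ. Its descending levels were 176, 192 and 343 in control and 16.3, 17.5 and 15.6 with TGFβ. The 4 groups did not overlap, and descending control replicate 3 was the highest library. The change was -3.27 ± 0.11 in ascending (adjusted p = 1.34e-13) and -3.86 ± 0.31 in descending cultures (adjusted p = 0.00229), or -3.48 ± 0.065 without that library. Ascending cultures were lower than descending ones in control, at -2.28 ± 0.29 (adjusted p = 0.0192), or -1.90 ± 0.063 without that library, and with TGFβ, at -1.69 ± 0.13. The interaction, 0.59 ± 0.35, or 0.21 ± 0.15 without that library, was not called. *Rspo3*, another R-spondin, had 0 to 31 counts per library and was not called in any of the 5 tests. Of its exon sequence 13.1% overlaps *Gm48159*. Of the receptors, *Lgr6* was at 9.56, 12.3 and 9.30 normalized CPM in ascending control and 7.93, 8.94 and 8.23 with TGFβ. In descending cultures its values were 19.8, 21.4 and 17.6 in control and 8.62, 7.48 and 7.80 with TGFβ. Control libraries were above the TGFβ libraries of the same site. It fell in descending cultures, with a log2 change of -1.31 ± 0.16, or -1.36 ± 0.11 without control replicate 3, a call lost without control replicate 2 or any one TGFβ library (-1.36 to -1.23 over the 6 fits). The ascending change of -0.32 ± 0.13 (adjusted p = 0.0444) was lost in 4 of the 6 fits that left out 1 library (without control replicate 2 or TGFβ replicates 1, 2 and 3, with changes of -0.39 to -0.18 over the 6 fits). *Lgr4* rose by 0.42 ± 0.060 in ascending cultures, was not called in descending ones (0.57 ± 0.19, or 0.41 ± 0.068 and called without control replicate 3), and was lower in ascending than in descending cultures with TGFβ (-0.80 ± 0.058).

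The formin *Daam2* (chr17:49456022-49564343, minus strand), which links dishevelled to actin assembly, had the largest difference between sites in control among the members tested. In control it was at 3.56, 4.39 and 3.55 normalized CPM in ascending and 57.0, 59.4 and 72.4 in descending libraries. With TGFβ it was at 1.30, 1.09 and 1.36 in ascending and 4.03, 3.85 and 3.31 in descending libraries. Descending controls were above all other libraries, and descending TGFβ and ascending control libraries overlapped. The difference of ascending from descending was -4.03 ± 0.18 in control (adjusted p = 0.00155) and -1.57 ± 0.23 with TGFβ (adjusted p = 1.81e-06). *Daam2* fell with TGFβ, with log2 changes of -1.62 ± 0.22 in ascending and -4.08 ± 0.18 in descending cultures, and the interaction was 2.46 ± 0.22 (adjusted p = 0.00162). The descending change, the control difference and the interaction were -3.96 ± 0.10, -3.91 ± 0.087 and 2.35 ± 0.23 without descending control replicate 3, all called. *Daam1*, its paralog, was not called for TGFβ at either site. It was at 58.8, 59.4 and 61.9 normalized CPM in ascending control and 61.1, 62.8 and 55.6 with TGFβ. In descending cultures its values were 29.3, 32.9 and 58.6 in control and 28.2, 28.8 and 29.2 with TGFβ. Of the descending libraries, control replicate 3 alone lay within the range of the ascending TGFβ libraries. The changes of *Daam1* were -0.0095 ± 0.053 in ascending and -0.50 ± 0.28 in descending cultures, or -0.11 ± 0.078 without control replicate 3. It was higher in ascending cultures with TGFβ (1.06 ± 0.060, adjusted p = 9.65e-15), and differed in control by 0.58 ± 0.28, not called, or 0.96 ± 0.064, called without descending control replicate 3. *Axin2*, the usual feedback target of β-catenin, had 0 to 23 counts per library and was not called in any test in which it passed the filter. It overlaps *Gm11670* over 3.8% of its exon sequence.

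Counted over the family, TGFβ changed 26 of 34 members tested in ascending cultures, 11 higher and 15 lower, where 55.8% of all 13917 genes tested were called (28.2% higher and 27.6% lower). The median log2 fold change of the members was -0.071 and that of all genes -0.0044. By role, 4 ligands rose and 2 fell of 9, 3 frizzleds rose and 5 fell of 9, and 1 inhibitor rose and 4 fell of 6. In descending cultures 13 of 34 members were called, 4 higher and 9 lower, where 8.07% of genes were called (3.59% higher and 4.48% lower). Without descending control replicate 3 these were 29 of 36, 11 higher and 18 lower, with 52.9% of genes called (26.6% higher and 26.3% lower). The median log2 fold change with all libraries was -0.15 for the members and 0.021 for all genes, and without that library -0.12 and -0.012. All 5 inhibitors tested there fell with all libraries, and 6 of 6 without that library. The latter count adds *Sfrp2*, which passed the filter there only through its control libraries. Leaving out another of the 6 libraries gave 8 and 7 calls (descending control replicates 1 and 2) and 4, 3 and 3 (descending TGFβ replicates 1, 2 and 3). The calls of *Sfrp4*, *Rspo2* and *Daam2* were kept in each of these fits. Those of *Wnt10b*, *Sfrp1* and *Dkk2* were lost without any one of the 3 TGFβ libraries (2.82 to 3.46, -2.23 to -1.81 and -3.20 to -2.46 over the 6 fits), and that of *Ror1* without TGFβ replicate 2 or 3 (1.66 to 1.89).

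Between sites in control, 4 of 31 members were called, all lower in ascending cultures (*Fzd4*, *Dkk2*, *Rspo2* and *Daam2*), with 2.65% of genes called (1.19% higher and 1.47% lower), and a median difference of -0.15 for the members and 0.045 for all genes. Without descending control replicate 3, 24 of 34 were called, 9 higher and 15 lower, with 31.6% of genes called (16.4% higher and 15.2% lower), and medians of -0.27 and -0.0011. The 9 higher were *Wnt5a*, *Wnt9a*, *Wnt10b*, *Fzd3*, *Fzd6*, *Fzd8*, *Ror1*, *Sfrp2* and *Daam1* (0.22 to 2.25), and the 15 lower were *Wnt4*, *Wnt11*, *Fzd1*, *Fzd2*, *Fzd4*, *Fzd5*, *Lrp6*, *Sfrp1*, *Frzb*, *Dkk2*, *Dkk3*, *Rspo2*, *Lgr4*, *Lgr6* and *Daam2* (-3.91 to -0.16). Leaving out descending control replicate 1 or 2 gave 3 and 2 calls, and leaving out any one ascending control library gave 1, which was *Daam2*. With TGFβ, 21 of 34 members were called, 6 higher and 15 lower in ascending cultures, and 36.3% of genes were (18.1% higher and 18.2% lower), and the medians were -0.18 for the members and 0.0024 for all genes. The 6 higher ones were *Fzd6*, *Lrp6*, *Sfrp2*, *Sfrp4*, *Frzb* and *Daam1*. The call of *Wnt5b* was lost without descending TGFβ replicate 3 and without ascending TGFβ replicate 1, and its value with 1 library left out ranged from -1.10 to -0.63. For the interaction, 5 of 36 members were called, 4 with a more positive change in ascending cultures (*Sfrp4*, *Frzb*, *Dkk2* and *Daam2*) and 1 with a more negative one (*Ror1*), with 0.806% of genes called (0.321% and 0.485%) and medians of -0.13 for the members and -0.061 for all genes. They were 17 of 36, 9 and 8, with 13.5% of genes called (6.07% and 7.4%) and medians of 0.031 and 0.0057, when descending control replicate 3 was left out, and 2 to 5 when any other library was. The 12 members called for the interaction without that library and not with it were 7 with a more negative change in ascending cultures, *Wnt9a* (-2.18 ± 0.13), *Fzd6* (-1.61 ± 0.14), *Wnt10b* (-1.21 ± 0.14), *Fzd8*, *Wnt5a*, *Lrp5* and *Fzd7* (-0.61 to -0.24), and 5 with a more positive one, *Lgr6* (1.05 ± 0.16), *Wnt11* (0.94 ± 0.19), *Sfrp1*, *Lrp6* and *Dkk3* (0.25 to 0.58).

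**Figure D5:**
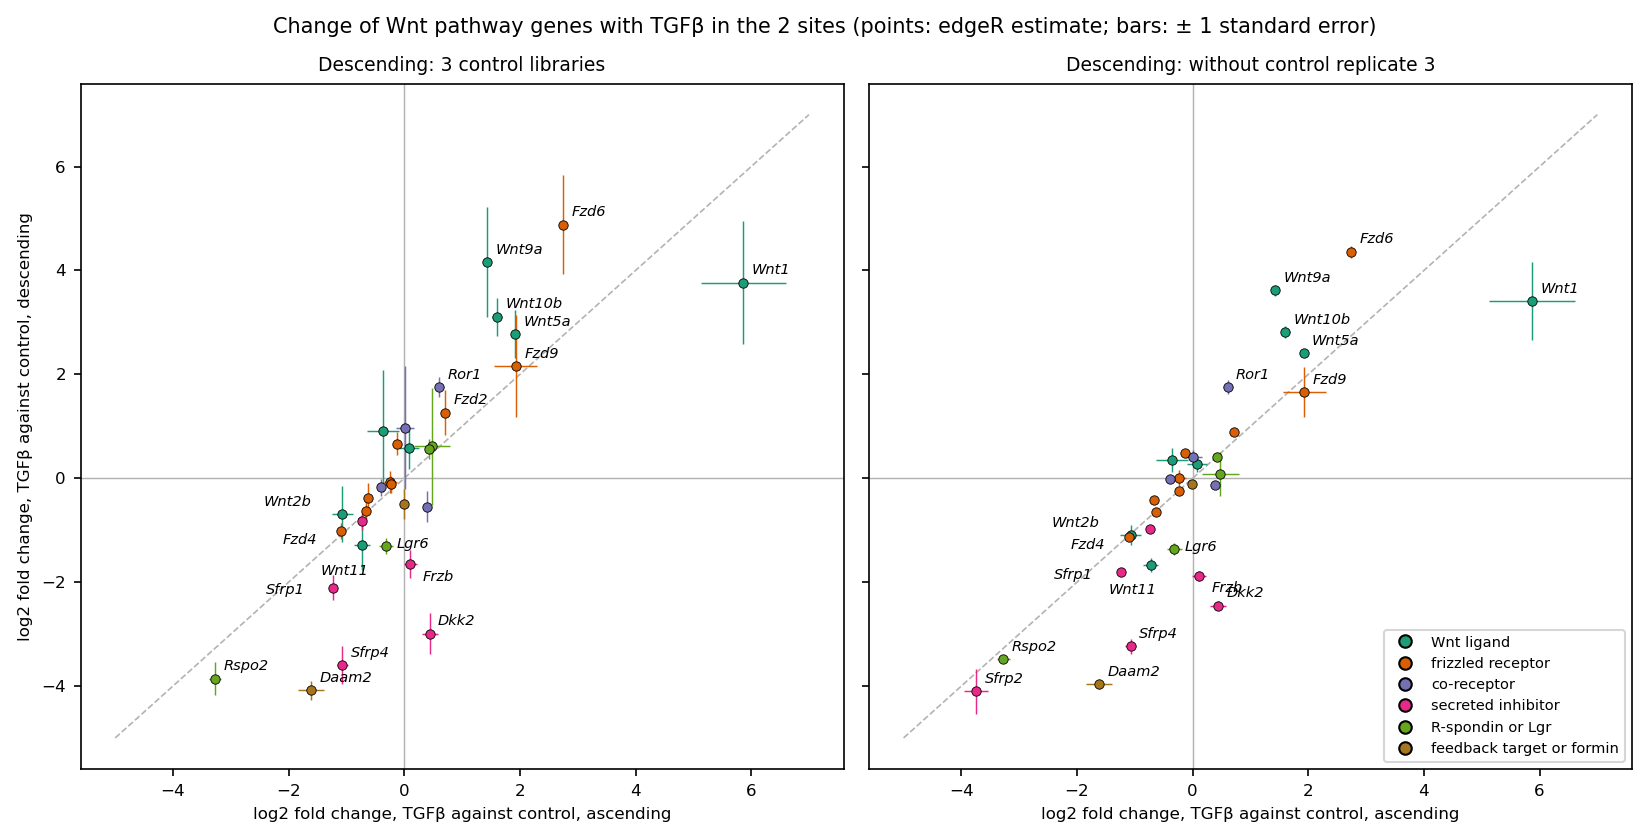
Log2 fold change with TGFβ (edgeR estimate ± 1 standard error) in ascending (x axis) and descending (y axis) cultures for each member tested at both sites, with all libraries (left) and without descending control replicate 3 (right). *Dkk2* lies in the quadrant higher in ascending and lower in descending cultures in both panels. *Wnt5a*, *Wnt9a*, *Wnt10b*, *Fzd6* and *Ror1* are among those above the diagonal of equal change. Of these, *Ror1* alone had an interaction called with all libraries.

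Set side by side, 32 members were tested for TGFβ at both sites. Of these, 12 were called at both, 4 higher at both (*Wnt5a*, *Wnt10b*, *Fzd6* and *Ror1*), 7 lower at both and 1, *Dkk2*, in opposite directions. Without descending control replicate 3, 33 were tested at both and 25 called at both, 9 higher, 13 lower and 3 in opposite directions (*Fzd8*, *Lrp6* and *Dkk2*). The 2 tests share no libraries. The share of all genes called at both sites was not computed, so these counts are not a result particular to the members. In ascending cultures 55.8% of all genes were called. In descending ones 8.07% were called with all libraries and 52.9% without control replicate 3.

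Other genes of the pathway were taken from lists of secretion factors, membrane regulators, the destruction complex, nuclear factors, planar polarity genes and β-catenin targets. Of 64 such genes, 52 were tested in ascending cultures, and 12 rose and 21 fell with TGFβ, where 55.8% of all genes were called. In descending cultures 4 rose and 6 fell of 51 tested (8.07% of all genes), and 11 rose and 21 fell of 52 without control replicate 3 (52.9%). Between sites in control, 1 was higher and 3 lower in ascending cultures of 51 tested (2.65%), and 7 higher and 17 lower of 52 without descending control replicate 3 (31.6%). With TGFβ 7 were higher and 19 lower of 52 (36.3%). The β-catenin targets, with *Axin2* counted, were mixed. In ascending cultures 5 rose and 3 fell of 9 tested. In descending ones 2 rose and 2 fell of 10, or 4 and 3 of 10 without control replicate 3. *Wisp1*, a secreted matricellular protein on that list, rose by 3.61 ± 0.033 in ascending and 4.18 ± 0.20 in descending cultures (4.03 ± 0.066 without control replicate 3). *Tle2*, a corepressor of TCF/LEF factors, fell at both sites, with changes of -1.99 ± 0.078 and -2.19 ± 0.21 (-2.34 ± 0.091). *Apcdd1*, a membrane inhibitor of Wnt signalling that is also on the list of β-catenin targets, fell with changes of -1.80 ± 0.082 and -1.91 ± 0.24 (-1.97 ± 0.16). It was higher in ascending cultures in control (1.77 ± 0.14, or 1.72 ± 0.082 without descending control replicate 3) and with TGFβ (1.89 ± 0.16). Of the glypicans, surface proteoglycans that bind Wnt proteins, *Gpc6* fell with changes of -1.23 ± 0.041 and -1.51 ± 0.13 (-1.40 ± 0.053), and *Gpc3* was lower in ascending cultures in control (-2.95 ± 0.32, or -2.95 ± 0.26) and with TGFβ (-2.41 ± 0.47). *Lef1*, the nuclear partner of β-catenin, rose in ascending cultures (2.48 ± 0.36), was not called in descending ones (0.24 ± 0.58), and was called there without control replicate 3 (1.06 ± 0.24). It was lower in ascending than in descending cultures with TGFβ (-0.76 ± 0.22), and in control at -2.995 ± 0.73, not called, or -2.18 ± 0.40, called without descending control replicate 3.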

How the data were processed

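Paired-end RNA-seq gave 12 fibroblast libraries, 3 for each group of site and condition named in the labels. Per the study's methods and the submitters' processing notes, the authors aligned reads to mm10 with STAR, counted them with featureCounts and deposited the raw counts for each symbol, not normalized. The strand setting and the treatment of reads that match several genes are not given in the sources used here, so members whose exons overlap another gene are named with that share (GENCODE vM21, GRCm38). Rows with a number for a symbol (22) were kept. Library totals were 16250126 to 23892943.

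Counts were tested in R 4.3.3 with edgeR 4.0.16 (TMM; filterByExpr with its default minimum count, 10, and minimum total, 15, on the groups in each fit; quasi-likelihood F-test; Benjamini-Hochberg over all genes tested, threshold 0.05). The SE was the size of the log2 fold change divided by the square root of F. The 5 tests were TGFβ against control within each site, ascending against descending within each condition, and the interaction. A member is given in every library where it was called, with all libraries or without descending control replicate 3, at an absolute log2 fold change of at least 1. The 6 other pathway genes with values are those called with the largest changes. Alternatives were DESeq2 1.42.0, its size factors, 2 other filters, all 12 libraries in one fit, limma 3.58.1 voom with library weights, a replicate block, and each library left out. The fitting code was checked on simulated counts in which 200 genes were changed. Their spread was taken from the libraries other than descending control replicate 3, so the check does not cover a library like it. The members and lists were chosen with earlier results of these data known. No duplicated library was found. One gene of the lists is not reported here.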

Additional observations from a re-analysis of the deposited data

Results flagged for a closer look

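For 5 members the change with TGFβ differed between sites in the test of the interaction itself (edgeR's quasi-likelihood test, Benjamini-Hochberg adjusted). Values are the ascending log2 change minus the descending one, ± the standard error. The interaction of *Dkk2* was 3.42 ± 0.42 and that of *Daam2* 2.46 ± 0.22, and both were called in each of the 12 fits that left out 1 library, over which they ranged from 2.90 to 3.64 and from 2.35 to 2.57. *Sfrp4* had an interaction of 2.52 ± 0.37, which was called in 6 of the 12 fits (not without an ascending control library, ascending TGFβ replicates 1 or 3, or descending TGFβ replicate 3) and ranged from 2.16 to 2.71. *Ror1* had -1.15 ± 0.20, called in 3 of the 12 fits, those without a descending control library, with a range of -1.28 to -1.05. *Frzb* had 1.75 ± 0.33, called in 1 of the 12 fits, that without descending control replicate 3, with a range of 1.60 to 1.99. All 5 were called without that library.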

How the results depend on the processing

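Members called in ascending cultures with TGFβ numbered 13 when the 12 libraries were put in one fit, in which the spread of descending control replicate 3 enters every test, and 24 to 26 when 1 library was left out. In descending cultures the count was 22 in one fit, 26 with limma voom and library weights, and 3 to 29 with 1 library left out (3 to 8 for libraries other than control replicate 3). Between sites in control it was 8 with DESeq2, 14 in one fit, 21 with voom, and 1 to 24 with 1 library left out (1 to 3 for the others). With TGFβ it was 8 in one fit and 20 to 22 with 1 library left out. For the interaction it was 8 with DESeq2, 3 with no filter on low counts, 17 with voom, and 2 to 17 with 1 library left out (2 to 5 for the others). Counts under the alternatives not given here were within 1.5 times those reported.

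Pairing by replicate number was not established. The 18 correlations between the deviations of same-numbered libraries from their group means lay between -0.022 and 0.095. Of 12 libraries, 6 correlated best with their own number, and the rate without pairing was not computed. Replicate 3 dominates the deviations in descending control, so pairing could not show there. With the replicate number as a block, the members called were 3 for TGFβ in descending cultures, 0 between sites in control (11 at an unadjusted p under 0.05 in edgeR, and 8 called by DESeq2 without the block) and 3 for the interaction, and 26 and 22 in the other 2 tests.

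Of 52 calls of named members, 23 held under every alternative run, 29 were lost under at least 1, and 0 reversed. Among uncalled values, the control site difference of *Wnt11* turned to 0.14 without descending control replicate 1, over a range of -0.54 to 0.14 with 1 library left out, and the interaction of *Dkk3* to -0.00029 without descending control replicate 2, over a range of -0.00029 to 0.25. The cause was not tested. Depth limits *Wnt1*, *Wnt4*, *Wnt7b*, *Wnt10a*, *Fzd9*, *Rspo3* and *Axin2*, whose highest count in a library was 15 to 31, and *Sfrp2* in descending TGFβ libraries.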
